A study of Mus musculus with 4 samples.

Results

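The genes that build the alpha-beta T cell receptor were examined in 4 mouse RNA sequencing libraries, 2 of wild-type (WT) cDNT cells and 2 of cDNT cells labelled Tbx21-KO. Members were taken by name: every row whose GENCODE symbol starts with Trav, Traj or Trac for the alpha chain, or Trbv, Trbd, Trbj or Trbc for the beta chain. This gave 178 of the 24768 genes in the deposited table, out of 242 such genes in the annotation. Of the 178, 8 have dv in the symbol because the delta chain can use them too, and they are given apart from the other 170. The cells are labelled T cells, and the title of the series names double-negative T cells, which lack the CD4 and CD8 coreceptors. The labels give no strain, age, culture or meaning of the letter c in cDNT, and they do not say how the Tbx21-KO cells were made. The design text calls that group a knockdown, so Tbx21-KO is used here as a label. Tbx21, the gene of the transcription factor T-bet, was at 13.2 and 11.7 FPKM in WT, against 2.29 and 2.41 FPKM in Tbx21-KO. FPKM counts sequenced fragments per kilobase of gene, scaled to the size of the library.

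A T cell receptor chain is assembled by cutting and joining germline DNA. An alpha chain combines a V segment, a J segment and the constant gene Trac, and a beta chain combines V, D and J segments with Trbc1 or Trbc2. The V segment makes most of the antigen-contacting domain, the D segment and the joints give the hypervariable loop, and the constant gene anchors the chain and pairs it with the CD3 complex. The delta genes lie inside the alpha locus, between the V and J segments, so some V segments can join either chain. Rearrangement of V to J in the alpha locus deletes the delta genes lying between them. In mature T cells, a V segment far upstream is usually transcribed well only once it has been joined near the enhancer of its locus. J segments can also be read in transcripts that start at germline promoters or are not yet spliced, so their level is not simply that of joined chains.

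The sequences show how alike some members are and how short others are. They are GENCODE transcripts of the GRCm38 build, written 5′ to 3′ on the plus strand. The last 300 bases of Trav16 (chr14:53743406-53743705) and Trav16n (chr14:53351322-53351621), a pair that differed in their change, had 4 mismatches over these 300 bases (98.7% identity), shown in capitals.
Trav16: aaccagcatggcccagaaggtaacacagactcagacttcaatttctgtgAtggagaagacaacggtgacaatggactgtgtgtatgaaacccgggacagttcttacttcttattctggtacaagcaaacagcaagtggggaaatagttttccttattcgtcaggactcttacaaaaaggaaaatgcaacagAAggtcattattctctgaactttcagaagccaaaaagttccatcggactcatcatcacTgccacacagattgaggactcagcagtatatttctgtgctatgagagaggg
Trav16n: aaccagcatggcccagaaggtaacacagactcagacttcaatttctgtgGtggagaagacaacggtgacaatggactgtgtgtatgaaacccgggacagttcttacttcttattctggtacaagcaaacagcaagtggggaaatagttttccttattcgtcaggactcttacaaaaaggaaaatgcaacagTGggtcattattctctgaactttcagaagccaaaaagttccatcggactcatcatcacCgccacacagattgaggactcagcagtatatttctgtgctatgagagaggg
The last exons of Trav13-4-dv7 (chr14:53757643-53757921), the alpha V segment with the most reads, and of its relative Trav13-2 (chr14:53635121-53635399) had 12 mismatches over 279 bases (95.7% identity), again in capitals.
Trav13-4-dv7: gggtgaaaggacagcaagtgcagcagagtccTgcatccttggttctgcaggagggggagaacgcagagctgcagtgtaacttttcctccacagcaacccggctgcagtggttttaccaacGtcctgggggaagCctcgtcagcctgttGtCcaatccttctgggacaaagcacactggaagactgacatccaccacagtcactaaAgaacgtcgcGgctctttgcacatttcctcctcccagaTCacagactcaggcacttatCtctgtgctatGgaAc
Trav13-2: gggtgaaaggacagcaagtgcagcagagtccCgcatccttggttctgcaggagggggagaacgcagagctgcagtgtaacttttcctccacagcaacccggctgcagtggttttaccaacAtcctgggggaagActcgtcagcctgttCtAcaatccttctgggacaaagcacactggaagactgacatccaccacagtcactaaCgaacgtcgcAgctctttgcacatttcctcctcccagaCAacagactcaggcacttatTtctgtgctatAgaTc
Trbv3 (last 300 bases, chr6:41048529-41048828) had the highest mean level of the beta V segments, and the capitals mark TGTGC, which holds the codon of the conserved cysteine before the junction.
Trbv3: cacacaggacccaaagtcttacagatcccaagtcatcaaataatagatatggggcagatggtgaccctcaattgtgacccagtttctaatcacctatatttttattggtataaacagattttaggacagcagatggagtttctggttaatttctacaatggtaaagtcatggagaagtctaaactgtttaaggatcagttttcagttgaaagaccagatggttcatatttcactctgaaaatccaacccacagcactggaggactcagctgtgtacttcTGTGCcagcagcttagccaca
The D segment Trbd1 (chr6:41533201-41533212) and the J segments Trbj1-5 (chr6:41535084-41535133) and Trbj1-6 (chr6:41535554-41535606) are complete as printed, and the capitals in Trbj1-5 mark a J motif.
Trbd1: gggacagggggc
Trbj1-5: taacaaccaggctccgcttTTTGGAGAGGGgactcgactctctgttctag
Trbj1-6: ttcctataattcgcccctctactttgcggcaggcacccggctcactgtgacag
The motif searched, on the coding strand, was TTN or TGG followed without a gap by GGN, NNN and GG, which covers the codons of the phenylalanine or tryptophan and the glycines that functional J segments share. It was found in 56 of the 64 annotated functional J segments (87.5%) and in 2 of 10 J pseudogenes (20%). Trbj1-6 is among those without these letters.

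Library totals implied by the FPKM values ran from 23342610 to 24967053 reads. With these totals and the exon lengths, each of the 533 member values above 0 came out within 0.1 of a whole number of reads, so reads are given beside FPKM. Replicate libraries differed from each other beyond counting error. Whether they are separate cultures or animals is not labelled. The p-values therefore cover the variation among these 4 libraries and no more, and this may be technical. Markers of other blood cells also differed between the groups: 11 of 11 granulocyte and mast cell markers were called higher in Tbx21-KO, with summed FPKM of 8.92 and 11.3 in WT and 10641 and 10947 in Tbx21-KO. Of the macrophage and monocyte markers all 5 tested were called higher, with sums of 15.5 and 18.4 FPKM in WT and 262 and 283 FPKM in Tbx21-KO. The neutrophil gene Csf3r was at 0 in WT 1. Of the dendritic cell markers 3 of 5 tested were called higher, and the list summed to 29.5 and 31.3 FPKM in WT, against 84.9 and 90.8 FPKM in Tbx21-KO. Both B cell markers that were tested were called higher, Igkc, an immunoglobulin light chain gene (5.80 and 6.62 FPKM in WT versus 36.7 and 33.3 FPKM in Tbx21-KO), and Ighm, while Ms4a1 and Pax5 were at or below 0.0517 FPKM in each library. Natural killer markers went the other way: both tested, Klrb1c and Klre1, were called lower, and the list of 4 summed to 18.2 and 16.1 FPKM in WT versus 4.34 and 5.76 FPKM in Tbx21-KO. The part of these transcripts in the results below was not tested.

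Alpha-beta receptor transcripts were less abundant in both Tbx21-KO libraries. The 178 members together held 15623 and 16969 reads in WT, against 8342 and 9037 in Tbx21-KO, which is 664 ± 54.8 and 367 ± 13.2 RPM, reads scaled to a library of 1000000 (SD, n = 2 each), or 55.2% of WT. In bulk RNA, fewer alpha-beta T cells and less receptor RNA in each cell cannot be told apart. Levels were tested as log2(FPKM + 1) with limma in genes with a mean of at least 1 FPKM over the 4 libraries, and a gene is called at a Benjamini-Hochberg adjusted p under 0.05. Fold changes are given as Tbx21-KO minus WT on this log2 scale, on which changes of low genes come out too small. Without the dv segments, 74 of 170 members passed this minimum, and limma called 40 of them lower and 0 higher, while 34 were not called. Among all 11013 genes tested, 23.0% were called lower and 30.1% higher. At an unadjusted p under 0.05, 44 of the 74 were lower and 0 higher, and the share over all genes was not counted at this threshold. The voom fit of the recovered reads gave 27 lower and 0 higher, beside 25.7% lower over the 11005 genes in that fit. Without WT replicate 2, 4 of the 74 were called higher, and without Tbx21-KO replicate 1, 1 was. The median log2 fold change was -0.67 over the 74 and 0.04 over all genes tested. Of the 74, 15 had a Tbx21-KO mean under 1 FPKM and passed through their WT level, and 8 of those 15 were among the falls.

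**Figure D1:**
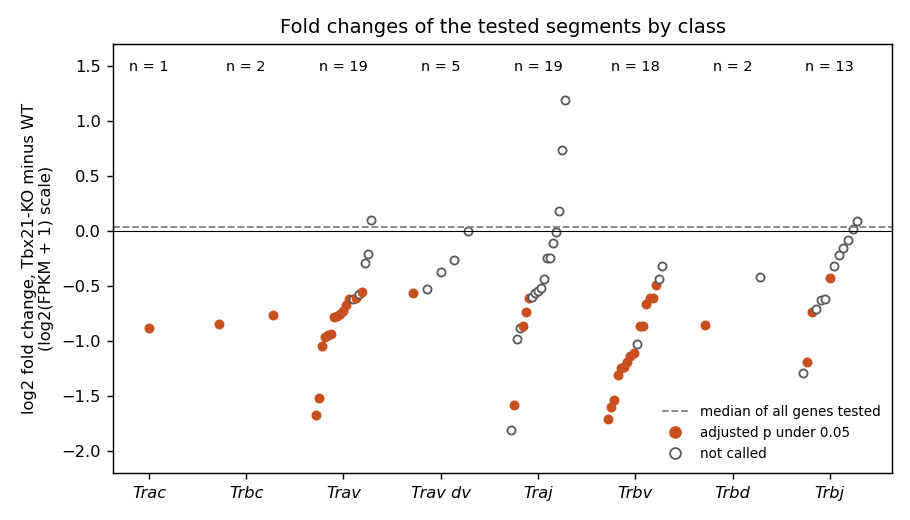
Log2 fold change (Tbx21-KO minus WT, log2(FPKM + 1) scale) of each tested segment by class, 1 point per gene. Filled points have an adjusted p under 0.05, and all 41 of them, 1 dv segment included, lie below 0; open points are not called, and the dashed line is the median of all genes tested (0.04).

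The fall was also present relative to the CD3 chain genes, which T cells of every receptor type share. With the libraries rescaled to the geometric mean of Cd3d, Cd3e, Cd3g and Cd247, 32 of the 74 were lower and 2 were higher. Among all genes, 7.57% were lower and 57.7% higher on this scale. The 2 called higher on this scale were Trav16 and Traj15, which were not called on the deposited scale. The median over the 74 was -0.44 and that over all genes 0.30. Counting members without a level minimum, 73 of the 164 detected in any library (44.5%) had both Tbx21-KO values below both WT values, and 12 (7.32%) had both above. Over all 24060 genes detected, these shares were 20.9% and 38.7%. Of the 8 dv segments 4 lay below and 0 above. The 12 were Trav1, Trav3-1, Trav7n-4, Trav6-5 and 8 Traj segments, each with few reads.

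The constant genes carried most of the reads and fell to between 54.1% and 58.2% of WT. Trac (ENSMUSG00000076928, GRCm38 chromosome 14, 54220521 to 54224206), the alpha constant gene, measured 140.3 and 138 FPKM in WT versus 72.3 and 78.4 FPKM in Tbx21-KO. The groups were far apart compared with the spread within each. Its log2 fold change was -0.88 (limma adjusted p = 0.000267, SE 0.05), from 3276 and 3123 reads against 1579 and 1761.

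Trbc1 (chromosome 6, 41538218 to 41539881) encodes the constant domain used by chains that use the first J cluster. It was at 179.9 and 196 FPKM in the WT libraries and 101 and 106 FPKM in the Tbx21-KO libraries, a log2 fold change of -0.85 (adjusted p = 0.000416, SE 0.06). Trbc2 (chromosome 6, 41546730 to 41548352), its near-identical partner behind the second J cluster, stood at 245 and 320.2 FPKM in WT, against 165 and 164 FPKM in Tbx21-KO. Here the WT libraries differed from each other more than the Tbx21-KO libraries did, and the log2 fold change of -0.76 (adjusted p = 0.00736, SE 0.13) had the largest error of the 3 constant genes. Its call was lost without Tbx21-KO replicate 1 (adjusted p = 0.0503) and without Tbx21-KO replicate 2 (adjusted p = 0.0504). Of the 50-base stretches in these genes, 41.1% in Trbc1 and 44.0% in Trbc2 also occur in another annotated alpha-beta gene. The split of reads between them is therefore uncertain. Here and below, such stretches were searched only among the annotated alpha-beta genes, not in other genes. The ratio of Trbc2 to Trbc1 FPKM was 1.36 and 1.64 in WT and 1.64 and 1.54 in Tbx21-KO, which overlap.

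**Figure D2:**
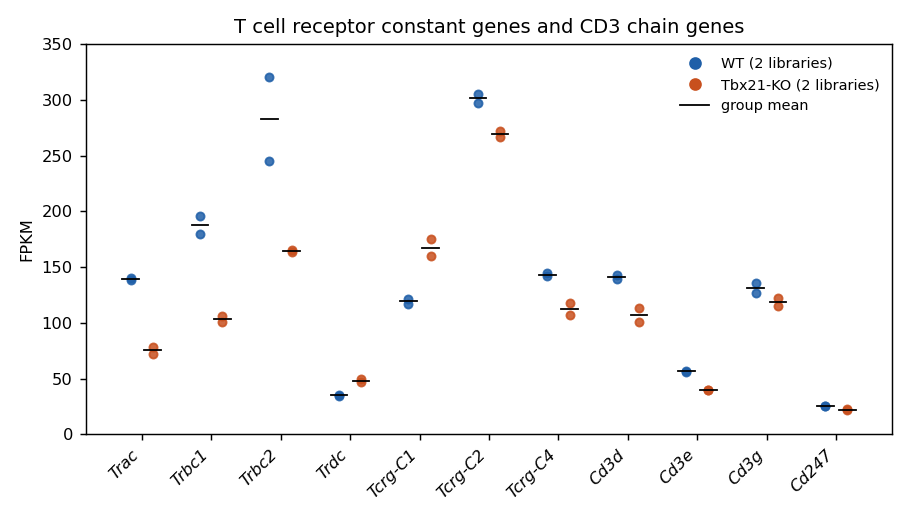
FPKM of the alpha, beta, delta and gamma constant genes and the 4 CD3 chain genes, with 1 point per library and a line at each group mean (2 libraries each). Trac, Trbc1 and Trbc2 lie lower in both Tbx21-KO libraries, whereas Trdc and Tcrg-C1 lie higher.

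Relative to the CD3 chains, the constant genes of the alpha and the delta chain moved in opposite directions. The ratio of Trac to the geometric mean of the CD3 chain genes was 1.97 and 1.91 in WT and 1.27 and 1.33 in Tbx21-KO. Trdc, the delta constant gene, had ratios of 0.501 and 0.476 in WT and 0.817 and 0.842 in Tbx21-KO. With the libraries rescaled to the CD3 chains, limma called Trac lower (log2 fold change -0.57, adjusted p = 0.000254) and Trdc higher (log2 fold change 0.75, adjusted p = 0.000136). Within each library, Trac FPKM was 3.93 and 4.01 times that of Trdc in WT and 1.55 and 1.58 times in Tbx21-KO. These ratios are between genes per length, and the groups do not overlap in any of the 3. With 2 libraries against 2, an exact permutation test of a ratio cannot give a two-sided p under 0.33, so none was run.

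Of the 5 gamma-delta constant genes, 2 were called higher, 2 lower and 1 was not called, beside 30.1% higher and 23.0% lower over all genes. With the CD3 rescaling 4 of the 5 were called higher, beside 57.7% of all genes. Trdc itself was at 35.7 and 34.5 FPKM in WT versus 46.7 and 49.7 FPKM in Tbx21-KO (adjusted p = 0.00179, log2 fold change 0.45 ± 0.05 SE). Tcrg-C1 rose by a log2 fold change of 0.48. Tcrg-C4 fell by 0.35 on the log2 scale, and Tcrg-C2 by 0.16, a value that turned to 0.15 with the CD3 rescaling and lost its call without WT replicate 2 or either Tbx21-KO library (-0.18 to -0.14). Tcrg-C4 lost its call with the CD3 rescaling (-0.04). Over all 24 gamma-delta rows, constant genes included, 22 were tested, of which 5 were called higher, 4 lower and 13 were not called, with a median log2 fold change of 0.03. The V segments named here were chosen after their values were seen. The delta V segment Trdv4, which many innate-like gamma-delta T cells use, was at 24.8 and 23.4 FPKM in the WT libraries and 137 and 132 FPKM in the Tbx21-KO libraries. Tcrg-V6, its usual gamma partner in those cells, was at 2.46 and 3.71 FPKM in WT, against 28.8 and 26.6 FPKM in Tbx21-KO. Tcrg-V1 was called lower, at 105 and 107 FPKM in WT versus 60.9 and 71.8 FPKM in Tbx21-KO, and so it was with the CD3 rescaling. Trgv2 was called lower too (-0.16), but not with that rescaling. All 24 gamma-delta rows together had summed FPKM of 1117 and 1145 in WT and 1161 and 1233 in Tbx21-KO. The 178 alpha-beta rows, dv segments included, had 1605 and 1804 FPKM in WT and 990 and 1023 FPKM in Tbx21-KO. Such sums give short segments much weight, since the 2 Trbd rows added 253 FPKM in WT 1 from 76 reads. They therefore do not measure the number of chains of either type.

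The beta V segments had the lowest median fold change of any class with more than 2 tested genes. Of 26 rows, 18 were tested, 15 were called lower and 0 higher, and all 18 had a negative fold change, with a median of -1.07. Their reads summed to 2825 and 2917 in WT and to 1093 and 1252 in Tbx21-KO, or 42.3% of WT in RPM. The segments that were called lower ranged from 28.7% to 65.8% of their WT level.

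Trbv3 (chromosome 6, 41048290 to 41048828), whose sequence is printed above, stood at 35.3 and 37.1 FPKM in WT versus 9.70 and 11.1 FPKM in Tbx21-KO. It went from the highest beta V level in both WT libraries to a level near that of several others, with a log2 fold change of -1.71 (adjusted p = 0.000104, SE 0.07), the most negative of the called members on the log2(FPKM + 1) scale. By level it went to 28.7% of WT, and 5 called members with lower levels, Traj19, Trav7-3, Trav16n, Trav17 and Trav10, went to smaller percentages of WT. Trbv12-1 was at 19.9 and 22.8 FPKM in the WT libraries and 6.06 and 6.63 FPKM in the Tbx21-KO libraries. Trbv16 was at 25.4 and 25.1 FPKM in WT, against 7.21 and 8.89 FPKM in Tbx21-KO, so that both went to about the same percentage of WT, 29.7% and 31.9%. Trbv13-1 was at 16.9 and 21.2 FPKM in WT versus 6.91 and 7.16 FPKM in Tbx21-KO. Trbv15 was at 20.5 and 26.1 FPKM in the WT libraries and 8.45 and 9.90 FPKM in the Tbx21-KO libraries. Trbv12-2, the second most abundant beta V segment, had 241 and 281 reads in WT and 90 and 114 in Tbx21-KO, or 40.4% of its WT FPKM. None of these groups overlapped, and the log2 fold changes of these 5 ran from -1.60 to -1.24, each with an adjusted p of 0.00176 or less.

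Smaller falls were found in Trbv19, from 13.7 and 16.6 to 7.34 and 8.38 FPKM, and in Trbv1, from 17.8 and 17.2 to 10.6 and 10.7 FPKM. Trbv1 lies at the far upstream end of the locus, and Trbv31, named after its value was seen, lies downstream of the constant genes in inverted orientation. Trbv31 was at 4.98 and 4.56 FPKM in WT versus 3.69 and 2.59 FPKM in Tbx21-KO, a log2 fold change of -0.49 (adjusted p = 0.0396, SE 0.14). The 3 tested beta V segments not called were Trbv24, Trbv26 and Trbv29, with log2 fold changes of -0.44, -0.32 and -1.03. In Trbv29 the Tbx21-KO libraries were at 3.76 and 8.02 FPKM and the WT libraries at 10.3 and 14.8 FPKM, a wide spread within each group. Across the 18 segments, the correlation of fold change with position along the locus was 0.37 (Pearson r, a description over genes measured in the same libraries).

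**Figure D3:**
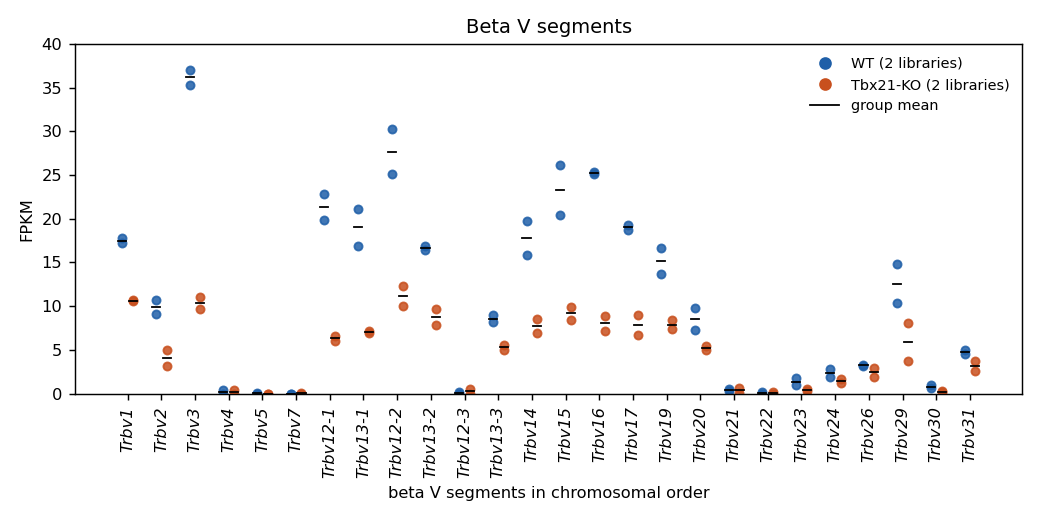
FPKM of the 26 beta V segments in their order along the chromosome, with 1 point per library and a line at each group mean (2 libraries each). Trbv3 shows the widest gap between groups, and Trbv4, Trbv5, Trbv7, Trbv12-3, Trbv21 and Trbv22 lie near 0 in both groups.

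Beta V reads were spread more evenly over the segments in the Tbx21-KO libraries. Of all beta V reads, Trbv3 held 14.2% and 14.0% in WT and 9.42% and 9.66% in Tbx21-KO, and Trbv16 held 8.92% and 8.26% against 6.13% and 6.79%. Trbv1 took a larger share, 6.55% and 5.93% in WT and 9.42% and 8.55% in Tbx21-KO, and so did Trbv19, at 6.83% and 7.78% against 8.87% and 9.11%. Trbv12-2 kept a similar share, 8.53% and 9.63% in WT and 8.23% and 9.11% in Tbx21-KO. The effective number of segments (the inverse Simpson index, which is the inverse of the summed squared shares) was 13.8 and 13.4 in WT and 15.3 and 15.2 in Tbx21-KO. By share, 8 of the 26 segments lay higher in both Tbx21-KO libraries, 4 lay lower and 14 overlapped.

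Alpha V segments without dv held 671 and 765 reads in WT against 342 and 356 in Tbx21-KO, or 50.3% of WT in RPM. Of 71 rows, 19 were tested, and 14 were called lower and 0 higher, with a median log2 fold change of -0.72. These reads are spread thinly: 34 of the 71 segments held fewer than 20 reads over the 4 libraries. Many alpha V segments exist as near-identical copies because a stretch of the locus has been duplicated, and copies carry the letter d or n. Of the 71, 63 share at least 1 stretch of 50 bases with another annotated alpha-beta gene and 30 share 50% or more. The value of a single alpha V gene is therefore uncertain wherever the counting could split reads between copies. Only 4 of the 26 beta V segments share such a stretch with another annotated alpha-beta gene, and stretches shared with other genes were not searched.

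The alpha V pair printed above moved differently. Trav16n (chromosome 14, 53351028 to 53351621) stood at 5.60 and 5.79 FPKM in the WT libraries and 0.826 and 1.40 FPKM in the Tbx21-KO libraries, or 58 and 58 reads against 8 and 14. It was called lower, with a log2 fold change of -1.68 (adjusted p = 0.000903, SE 0.15), and its mean FPKM went to 19.6% of WT. Trav16 (chromosome 14, 53743104 to 53743705) stood at 3.81 and 4.44 FPKM in WT, against 4.79 and 4.16 FPKM in Tbx21-KO and was not called (log2 fold change 0.10, adjusted p = 0.448). Since 48.2% and 57.3% of the 50-base stretches of Trav16 and Trav16n occur in other alpha-beta genes too, part of these reads could belong to either. Summed over the 3 rows of the Trav16 family, which include Trav16d-dv11, there were 111 and 113 reads in WT and 59 and 59 in Tbx21-KO.

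Other alpha V segments with higher levels fell less steeply. Trav13-2 was at 3.80 and 7.33 FPKM in WT versus 1.87 and 2.77 FPKM in Tbx21-KO, a log2 fold change of -0.94 with an adjusted p of 0.0485 (limma). Trav12-2 was at 3.76 and 3.31 FPKM in the WT libraries and 0.905 and 1.95 FPKM in the Tbx21-KO libraries. Trav14-3 was at 3.75 and 3.45 FPKM in WT, against 1.56 and 2.49 FPKM in Tbx21-KO. The last of these, with a log2 fold change of -0.62, lost its call with the CD3 rescaling, with voom, without WT replicate 1 (-0.57) and without Tbx21-KO replicate 1 (-0.40). Trav13-2 lost its call with that rescaling, with no variance trend, and without WT replicate 2 (-0.55), Tbx21-KO replicate 1 (-0.74) or Tbx21-KO replicate 2 (-1.14). Trav14-1 was not called except without WT replicate 1 (-0.59), at 1.61 and 3.43 FPKM in WT versus 1.61 and 2.29 FPKM in Tbx21-KO. Trav7-3 had 15 and 37 reads in WT against 3 and 1 in Tbx21-KO, a log2 fold change of -1.52 (limma adjusted p = 0.0167). Of its 50-base stretches, 70.8% occur in another alpha-beta gene. The call of Trav7-3 was lost without either Tbx21-KO library (-1.65 and -1.39). Its relative Trav7-1, named after its value was seen, was under the level minimum, with 23 reads over the WT libraries and 0 over the Tbx21-KO libraries. Against a floor of 3 reads over the group it was at least 7.40-fold lower.

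Segments shared with the delta chain kept more of their summed reads than the other alpha V segments. The 8 dv rows held 731 and 689 reads in WT and 521 and 603 in Tbx21-KO, or 82.0% of WT in RPM. Without Trav13-4-dv7, the other 7 came to 69.8%, a value added after the data were seen. The 3 largest segments held 91.7% of the dv reads. Of the 5 tested, 1 was called lower and 0 higher, with a median log2 fold change of -0.37. Over all genes, 23.0% were called lower and 30.1% higher, so the share called lower is near that of all genes. The dv segments were not tested against the other alpha V segments as a group, so the difference between the 2 sets is a description. Reads of these segments do not tell whether the V was joined to an alpha or a delta chain.

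Trav13-4-dv7 (chromosome 14, 53757356 to 53757921), the alpha V segment with the most reads, stood at 31.3 and 29.2 FPKM in the WT libraries and 29.9 and 30.6 FPKM in the Tbx21-KO libraries. The 4 libraries overlap, and the log2 fold change was 0.00 (adjusted p = 0.983, SE 0.05). With the CD3 rescaling it was called higher, at 0.30 (adjusted p = 0.00703), which is also the median of all genes on that scale. Of its 50-base stretches, 72.9% occur in another alpha-beta gene.

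Trav15-1-dv6-1 (chromosome 14, 53559632 to 53560247), the second by reads, had 265 and 227 reads in WT against 148 and 167 in Tbx21-KO, with mean FPKM of 25.3 and 16.8. It was the dv segment called lower, with a log2 fold change of -0.56 (adjusted p = 0.00387, SE 0.08). Trav15-2-dv6-2 was at 10.8 and 14.7 FPKM in WT, against 7.64 and 11.8 FPKM in Tbx21-KO, which overlap. Of the less abundant ones, Trav21-dv12 was at 2.89 and 3.91 FPKM in WT versus 2.50 and 2.77 FPKM in Tbx21-KO and was not called. Trav4-4-dv10 was at 2.00 and 1.15 FPKM in the WT libraries and 0.712 and 0.807 FPKM in the Tbx21-KO libraries (adjusted p = 0.0657), or 48.3% of WT by mean. Trav16d-dv11, under the level minimum, was at 1.48 and 1.17 FPKM in WT, against 0.485 and 0.354 FPKM in Tbx21-KO, or 31.7% of WT by mean. In each of these 3 both Tbx21-KO values lay below both WT values. Without WT replicate 1, Trav21-dv12 was called lower (-0.44), and without WT replicate 2, Trav4-4-dv10 was (-0.77). Both were also called lower after quantile normalization.

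The dv segments took a larger share of the alpha V reads in Tbx21-KO. They held 52.1% and 47.4% of all Trav reads in WT and 60.4% and 62.9% in Tbx21-KO. Trav13-4-dv7 alone held 21.5% and 18.6% in WT and 31.2% and 29.5% in Tbx21-KO, whereas Trav15-1-dv6-1 held 18.9% and 15.6% against 17.1% and 17.4%. Trav16n went the other way, with 4.14% and 3.99% in WT and 0.927% and 1.46% in Tbx21-KO. The effective number of alpha V segments was 10.5 and 12.8 in WT and 7.15 and 7.34 in Tbx21-KO, the opposite direction to the beta V segments. Among functional segments without dv it was 27.9 and 26.6 in WT and 23.1 and 22.8 in Tbx21-KO, counted from 667 and 750 reads in WT and from 339 and 354 in Tbx21-KO. The part of the lower read number in this was not tested.

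**Figure D4:**
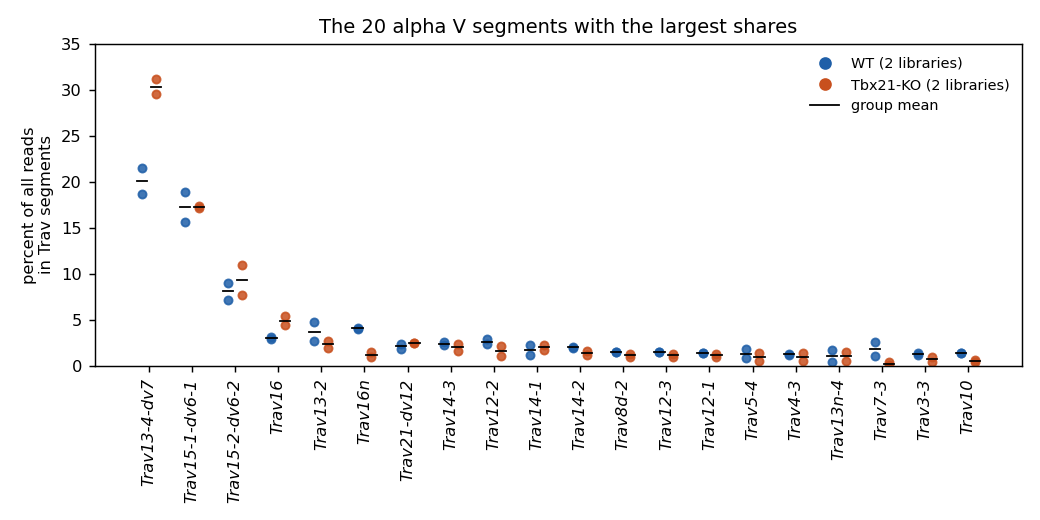
Percent of all Trav reads held by each of the 20 alpha V segments with the largest shares, dv segments included, with 1 point per library and a line at each group mean (2 libraries each). Trav13-4-dv7 lies near 30% in both Tbx21-KO libraries and near 20% in both WT libraries.

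Summing the copies of a V family puts aside the split of reads within it. The dv segments are included in their families here, and the Trav21 family is Trav21-dv12 alone. Among the 22 Trav families with rows, 14 held at least 50 reads, and 13 of them had both Tbx21-KO libraries below both WT libraries in RPM. The other, Trav5, overlapped. They ranged from 23.8% of WT in Trav10 to 89.2% in Trav13, the family of Trav13-4-dv7, with a median of 55.4%. All 15 Trbv families with at least 50 reads lay lower in both Tbx21-KO libraries, from 28.7% in Trbv3 to 75.3% in Trbv26, with a median of 46.9%. Genes whose groups do not overlap in that direction made up 20.9% of the 24060 genes detected in any library. That share is counted per gene and without a minimum of 50 reads, so it is not matched to these families in level.

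J segments kept more of their reads, but rest on few. The 54 Traj rows held 129 and 166 reads in WT and 109 and 119 in Tbx21-KO, which is 79.9% of WT in RPM. A Traj segment is 29 to 72 bases long, so a few reads give several FPKM: 48 of the 54 had fewer than 20 reads over the 4 libraries. Of 19 tested, 4 were called lower and 0 higher, with a median log2 fold change of -0.55. The share called lower is near the 23.0% over all genes.

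Traj1, annotated as a pseudogene, is the last J segment before Trac and had the highest Traj level. It was at 40.1 and 32.9 FPKM in WT versus 26.6 and 17.2 FPKM in Tbx21-KO, from 29 and 23 reads against 18 and 12 (log2 fold change -0.73, adjusted p = 0.0415). It lost its call with the CD3 rescaling, with voom, without WT replicate 1 (-0.60) and without Tbx21-KO replicate 2 (-0.43). Traj3 was at 9.71 and 8.79 FPKM in the WT libraries and 5.19 and 6.30 FPKM in the Tbx21-KO libraries (log2 fold change -0.61, SE 0.10, adjusted p = 0.00689), a call lost with voom on its 8 to 16 reads a library. Traj2, Traj6 and Traj7 were not called, and their groups overlapped. Without WT replicate 1 Traj6 was called lower (-0.93), and without WT replicate 2 Traj7 was (-0.51). Traj14 was not called either, with 5 and 8 reads in WT and 4 and 0 in Tbx21-KO, except without Tbx21-KO replicate 1 (-3.11). Traj19, also called lower, had 3 and 3 reads in WT and 0 and 0 in Tbx21-KO, which against a floor of 3 reads over the group is at least 1.93-fold lower, and it passed the level minimum through its WT values. Most Traj reads came from the segments nearest Trac: Traj1 to Traj15 held 93 and 129 reads in WT and 84 and 74 in Tbx21-KO.

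The 14 Trbj rows held 315 and 345 reads in WT and 220 and 264 in Tbx21-KO, or 75.8% of WT in RPM. Of 13 tested, 3 were called lower and 0 higher, with a median log2 fold change of -0.43. This share too is near the 23.0% of all genes called lower. Trbj1-6, printed above, was at 34.8 and 39.9 FPKM in WT, against 23.4 and 20.4 FPKM in Tbx21-KO, a log2 fold change of -0.74 (adjusted p = 0.00309, SE 0.10), a call that voom did not give. Trbj1-3 was at 32.6 and 42.2 FPKM in WT versus 27.8 and 27.0 FPKM in Tbx21-KO (log2 fold change -0.43, adjusted p = 0.0389), and its call was lost with the CD3 rescaling, with voom and without either Tbx21-KO library (-0.45 and -0.41). The neighbour Trbj1-5 was at 36.8 and 36.5 FPKM in the WT libraries and 25.7 and 46.6 FPKM in the Tbx21-KO libraries, so the Tbx21-KO libraries lay on either side of WT. It was called higher without Tbx21-KO replicate 1 (0.34) and lower without Tbx21-KO replicate 2 (-0.50). Trbj1-4, at 24.3 and 27.6 FPKM in WT, against 23.5 and 32.6 FPKM in Tbx21-KO, and Trbj1-7 overlapped too, although Trbj1-7 was called lower without WT replicate 1 (-0.60). Trbj2-7 was at 28.1 and 43.2 FPKM in WT versus 21.9 and 23.0 FPKM in Tbx21-KO (adjusted p = 0.0543), and was called lower without WT replicate 1 (-0.92) and without WT replicate 2 (-0.31).

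The D segments are the shortest members. Trbd1, of 12 bases, was at 250.3 and 252 FPKM in the WT libraries and 149.9 and 128 FPKM in the Tbx21-KO libraries, which is 75 and 73 reads against 42 and 37 (log2 fold change -0.85, SE 0.08, adjusted p = 0.00115). Its FPKM is of the size of a constant gene because of its length, not because of its number of reads. Trbd2, of 14 bases, had 1 and 6 reads in WT and 3 and 1 in Tbx21-KO and was not called.

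Set against the constant gene of the same chain, V and J segments differed. Trav reads without dv per Trac read were 0.205 and 0.245 in WT and 0.217 and 0.202 in Tbx21-KO, which overlap. Trbv reads per Trbc read were 0.372 and 0.328 in WT and 0.247 and 0.270 in Tbx21-KO and do not overlap. Traj reads per Trac read went the other way, at 0.0394 and 0.0532 in WT and 0.0690 and 0.0676 in Tbx21-KO, and so did Trbj reads per Trbc read, at 0.0414 and 0.0388 against 0.0496 and 0.0568. These are ratios of reads, not per length, and no test with 2 libraries against 2 can reach a two-sided exact permutation p under 0.33.

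**Figure D5:**
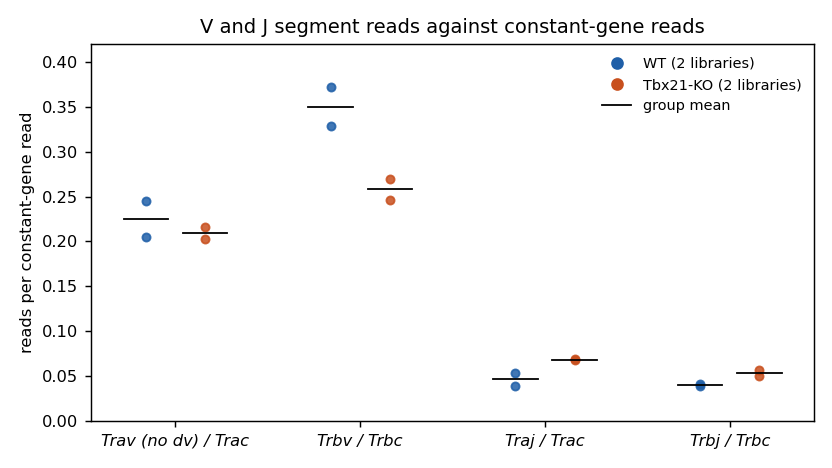
Reads in V and J segments divided by reads in the constant gene of the same chain, with 1 point per library and a line at each group mean (2 libraries each). The beta V ratio lies lower and both J ratios lie higher in the 2 Tbx21-KO libraries, and the alpha V ratio overlaps.

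Chains of invariant T cells were near the limit of detection. Natural killer T cells use Traj18, which had 0 and 1 reads in WT and 0 and 4 in Tbx21-KO. Trav11d, a copy of the V segment of these cells, had 0 and 1 reads in WT and 1 and 0 in Tbx21-KO, and Trav11 was not analysed here. Zbtb16, a transcription factor of innate-like T cells, was at 0.591 and 0.502 FPKM in WT, against 6.73 and 6.10 FPKM in Tbx21-KO. Mucosal-associated invariant T cells use Trav1, with 1 and 9 reads in WT and 10 and 11 in Tbx21-KO, and Traj33, with 0 and 0 reads against 0 and 2. A library with 0 reads allows up to 3, and all 4 segments had mean levels under 1 FPKM, so no difference was tested.

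Members annotated as pseudogenes numbered 20 of the 170. The 11 V pseudogenes with rows held 31 and 31 reads in WT and 20 and 16 in Tbx21-KO, 60.3% of WT in RPM, and the 94 functional V segments, dv included, held 4196 and 4340 against 1936 and 2195, or 50.1%. Of the 170 members, 88 were above 0 in all 4 libraries and 6 were at 0 in each. Just above the level minimum of 1 FPKM were Traj19, Trav17 and Trav13n-4, with mean FPKM of 1.00 to 1.14, and just below it were Traj58, Trav6-3 and Traj25, with 0.989, 0.944 and 0.910.

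The partners of the receptor moved less evenly. Of the 13 genes with rows in a list of 15 genes of the CD3 complex and proximal signalling, 8 were called lower, 1 higher and 4 were not called, with a median log2 fold change of -0.39, beside 23.0% lower and 30.1% higher over all genes. Cd3e, a CD3 chain, was at 57.2 and 56.1 FPKM in WT versus 40.2 and 39.8 FPKM in Tbx21-KO (log2 fold change -0.49, SE 0.04, adjusted p = 0.000544). Cd3d fell by 0.39 on the log2 scale, Cd247 by 0.19 (turning to 0.11 with the CD3 rescaling, and losing its call without either Tbx21-KO library at -0.21 and -0.17) and Lck, the kinase that starts receptor signalling, by 1.24. Cd5, an inhibitory receptor, was the gene called higher, with a log2 fold change of 0.53. The 4 without a call were Cd3g at -0.14, Zap70 at -0.09, Lat at 0.08 and Cd6 at 0.15. With the CD3 rescaling 5 of the 13 were lower and 5 higher, beside 7.57% lower and 57.7% higher over all genes; 4 of the 13 set that scale. Genes of receptor assembly were close to absent: Dntt, which adds bases at the joints, was between 0.176 and 0.403 FPKM, and Ptcra, the partner of the beta chain before the alpha chain is made, was at 0 in each library. Rag1 and Rag2 were not analysed here.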

How the data were processed

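RNA was column-extracted and made into mRNA libraries, 2 of WT and 2 of Tbx21-KO cDNT cells, per the labels' protocols. The authors deposited 1 table of FPKM values per gene and library. Per the submitters' processing notes, the genome build was GRCm38 (mm10). Not given in the sources used here are the aligner, the counter, its use of strand and its handling of reads that match several genes. A broken last row, of 24769 in all, was left out. Of the other 24768 IDs, 24720 matched GENCODE M21 (GRCm38), which gave symbols, exon lengths, coordinates and transcript sequences. Reads were recovered as FPKM times exon length times an estimated library total, chosen so that values under 20 reads came out whole (96.7% to 97.3% within 0.1 read). The totals need not be the full sequencing depth.

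From the deposited FPKM, log2(FPKM + 1) was tested across all 11013 genes with a mean of at least 1 FPKM, in limma 3.58.1 (R 4.3.3) with an intensity trend and Benjamini-Hochberg adjustment over all genes. The steps were tested on simulated data. The members and gene lists were chosen with earlier results of these data known. Genes named are the constant genes, the 6 highest of each segment class by level, the 6 largest V shares per locus, the 8 largest called falls, the 6 highest dv segments, the chains of invariant T cells, Tbx21, and listed genes that were called or define a cell type, and others are named to complete a count or where the text says that their values were seen. Alternatives were other pseudocounts, filters, scalings and variance models, voom on recovered reads, a replicate block, and leaving out each library.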

Additional observations from a re-analysis of the deposited data

How the results depend on the processing

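The count of 40 alpha-beta segments lower in Tbx21-KO (of 74 tested, dv segments left out) stayed within 1.5 times in every alternative but one. It was 25 of 38 tested at a mean FPKM of at least 5, where fewer genes are tested. It was 27 with voom on recovered reads, 34 with no variance trend, 32 with the CD3 rescaling and 33 to 48 with 1 library left out. Of the 40, 21 were lower and called in every fit in which they were tested, 13 of them Trbv. Counted gene by gene, 27 of the 40 kept their call with no filter and 26 with voom.

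The count of segments called higher was 0, against 3 with no filter, 2 with the CD3 rescaling and 0 to 4 with 1 library left out (4 without WT replicate 2, 1 without Tbx21-KO replicate 1). Trbc2 kept its direction with 1 library left out (-0.96 to -0.57) and lost its call without Tbx21-KO replicate 1 (-0.77) and without Tbx21-KO replicate 2 (-0.76). Leaving out a library leaves 1 sample in its group, which is assumed to vary like the others. Over all genes, 3315 higher became 2018 at a mean FPKM of at least 5 and 6350 with the CD3 rescaling, and 2531 lower became 3801 after quantile normalization and 834 with the CD3 rescaling. Those 2 scalings moved the median of all genes from 0.04 to -0.10 and 0.30. Directions turned in Trbj1-5, at 0.34 without Tbx21-KO replicate 1 (-0.50 without Tbx21-KO replicate 2), and with the CD3 rescaling in Tcrg-C2, at 0.15, and Cd247, at 0.11. Except where a sentence says otherwise, the cause was not tested. Of the other values of named genes under the alternatives, 603 kept direction and call, 39 lost a call and 20 gained one.

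The labels number the libraries 1 and 2 in each group. The differences between replicates 1 and 2 correlated at -0.02 between the groups over 11013 genes, so the numbers were not taken as a pairing. With a replicate block, 44 alpha-beta segments were lower, and all 40 kept their call. The depth limits single J and D segments most, since 48 of 54 Traj segments held fewer than 20 reads.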
